A study of Drosophila melanogaster with 2 samples.

Results

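The 33 genes described here encode subunits of the vacuolar proton pump of Drosophila melanogaster. They are all the protein-coding genes whose symbol starts with Vha in the Ensembl annotation of BDGP6, out of 13945 protein-coding genes on the main chromosome arms. The question put to them is where regions bound in a ChIP-seq of the orphan nuclear receptor Hr83 lay around their transcription start sites (TSSs), and whether the subunit isoforms of the general pump differed in this from their paralogs. The material was whole wandering larvae of the strain Hr83-GFP in the third instar, of unknown age and with both sexes pooled, in which an insertion targeting Hr83 stably expressed the receptor with GFP at its C-terminus, and the immunoprecipitation was against GFP. There was 1 group, with biological replicates numbered 3 and 4 and no other genotype or treatment. The sequence that drives the transgene is not given in the sources used here, and whole larvae mix all cell types, so a region cannot be placed in a tissue. The deposited lists hold peak positions on dm6 with a signal per region, without read counts, so the depth is unknown. A gene counted as having a peak where the summit of a region in the thresholded list of 4797 peaks, made by the authors from both replicates by irreproducible discovery rate (IDR), lay within 1 kb of any of its TSSs. Ranks run from 1, the strongest signal, within each list.

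The V-type proton pump moves protons into lysosomes, endosomes and secretory vesicles, and in insects also across the apical membrane of epithelia such as the Malpighian tubule and the midgut, where it energizes ion transport. It has a cytosolic sector, V1, with subunits A to H, in which the A and B subunits hydrolyse ATP, and a membrane sector, V0, in which a ring of c subunits turns against subunit a. In the fly several subunits are encoded by 1 broadly used gene and by further paralogs with narrower expression. From general knowledge of the fly pump, 13 genes were taken as main isoforms, 18 as paralogs and 2, VhaAC45 and VhaAC45RP, as accessory subunits. The classes were not derived from these data, but they were chosen with earlier results of these data known. Vha68-1 and Vha100-1, a neuronal form of subunit a, were kept with the paralogs. Mitf, the fly relative of the lysosomal regulator TFEB, is known to bind E-boxes with the core CACGTG at pump genes.

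The sequences below, in dm6 from the RefSeq genome and on the strand of the named gene, show what the regions and motif matches described further on look like at the start sites. The first set is the promoter of 3 main isoforms with a peak, Vha55, Vha100-2 and Vha13, of 2 paralogs with a peak, Vha68-1 and VhaM9.7-c, and of Nup58, the neighbour that shares a promoter interval with Vha13. Capitals mark the DRE TATCGATA in Vha55 and Nup58, the GAGA element GAGAGAG in Vha100-2, and TGACTT, the complement of the NR2E-type hexamer AAGTCA, in Vha100-2 and Vha13. The printed hexamer of Vha100-2 begins 187 bases before the TSS and runs past the end of the region there, at 18399354. In the printed stretches of both paralogs no letters of a searched motif were found, but TATAAA lies further upstream. It begins 211 bases before the TSS of Vha68-1, inside the region there, and 239 and 241 bases before that of VhaM9.7-c.
Vha55, chr3R:12627830-12628029, minus strand: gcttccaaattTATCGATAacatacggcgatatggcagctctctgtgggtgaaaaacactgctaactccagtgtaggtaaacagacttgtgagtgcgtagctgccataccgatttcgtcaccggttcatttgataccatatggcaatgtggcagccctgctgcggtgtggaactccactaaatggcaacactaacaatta
Vha100-2, chr3R:18399170-18399369, minus strand: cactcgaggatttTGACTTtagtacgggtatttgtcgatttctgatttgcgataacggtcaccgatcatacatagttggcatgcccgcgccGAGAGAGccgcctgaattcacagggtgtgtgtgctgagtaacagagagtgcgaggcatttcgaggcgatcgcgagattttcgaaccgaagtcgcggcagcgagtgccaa
Vha13, chr3R:19644387-19644566, minus strand: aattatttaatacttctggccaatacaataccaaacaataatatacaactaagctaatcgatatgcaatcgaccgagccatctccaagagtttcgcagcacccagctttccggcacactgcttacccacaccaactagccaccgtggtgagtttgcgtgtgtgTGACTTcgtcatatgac
Nup58, chr3R:19644966-19645025, plus strand: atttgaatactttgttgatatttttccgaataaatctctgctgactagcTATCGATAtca
Vha68-1, chr2L:13004108-13004307, minus strand: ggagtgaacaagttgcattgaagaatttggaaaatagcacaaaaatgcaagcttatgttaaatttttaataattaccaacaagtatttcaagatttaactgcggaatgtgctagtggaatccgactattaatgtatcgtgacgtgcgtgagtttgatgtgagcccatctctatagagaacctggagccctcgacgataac
VhaM9.7-c, chr3L:4186866-4187015, minus strand: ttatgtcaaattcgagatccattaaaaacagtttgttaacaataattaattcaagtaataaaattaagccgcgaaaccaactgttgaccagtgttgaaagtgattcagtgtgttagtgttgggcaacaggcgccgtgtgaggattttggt

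The second set is 30 bases around an E-box or DRE, in capitals, at a main isoform with a peak (Vha55), at 2 main isoforms without one (Vha68-2 and VhaSFD) and at an accessory gene without any listed region (VhaAC45RP). The Vha55 E-box lies inside the region with its peak, in the 5' UTR, and the Vha68-2 match is the longer form TCACGTGA.
Vha55, chr3R:12627756-12627785, minus strand: gtcatgtgacggCACGTGacgtcacagcag
Vha68-2, chr2L:12975292-12975321, plus strand: tcaaagctctgTCACGTGAaacgaaagctc
VhaAC45RP, chr3R:30166575-30166604, minus strand: ccgttacagaaaCACGTGgcactcgaattg
VhaSFD, chr2L:16727831-16727860, minus strand: tctgctcgtcaTATCGATAttcttatatat

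Within the 1 kb window, thresholded peaks lay at the genes of most subunits of the general pump and at few of the paralogs. Counted by nearest TSS, as described below, only 4 of the 13 main isoforms kept a peak (30.8%, beside 19.9% of all genes). Of the 13 main isoforms, 8 had a peak (61.5%), against 3 of the 18 paralogs (16.7%) and 0 of the 2 accessory genes, beside 27.3% of all protein-coding genes. A further accessory gene, VhaM8.9, is outside the 33 because it carries the symbol ATP6AP2. It had a peak (signal 101) and is described with the lysosomal genes. Taken as 1 list, 11 of the 33 Vha genes had a peak (33.3%), a share near that of all genes. The 8 main isoforms were Vha36-1, Vha55, Vha44, Vha14-1 and Vha13 of V1 and Vha16-1, Vha100-2 and VhaM9.7-b of V0, that is 5 of the 8 main V1 genes and 3 of the 5 main V0 genes. The 3 paralogs were Vha16-5, VhaM9.7-c and Vha68-1. Genes are not replicates of a class, and no test was made of the difference between main isoforms and paralogs. The classes were also chosen with earlier results of these data known.

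The same order was found in each replicate. Among the 4797 strongest regions of replicate 3, 9 main isoforms and 3 paralogs had a region, beside 26.4% of all genes. In replicate 4 it was 8 main isoforms and 3 paralogs, beside 26.3%. The gene added in replicate 3 was Vha68-2, at rank 2454 there and at 5829 in replicate 4. In the relaxed lists of 30000 regions, all 13 main isoforms had a region in replicate 3 and in replicate 4, against 6 and 10 of the 18 paralogs, beside 61.0% and 62.3% of all genes. In the relaxed list of the pooled replicates a region was found at 12 main isoforms and 7 paralogs, beside 62.3% of all genes.

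**Figure D1:**
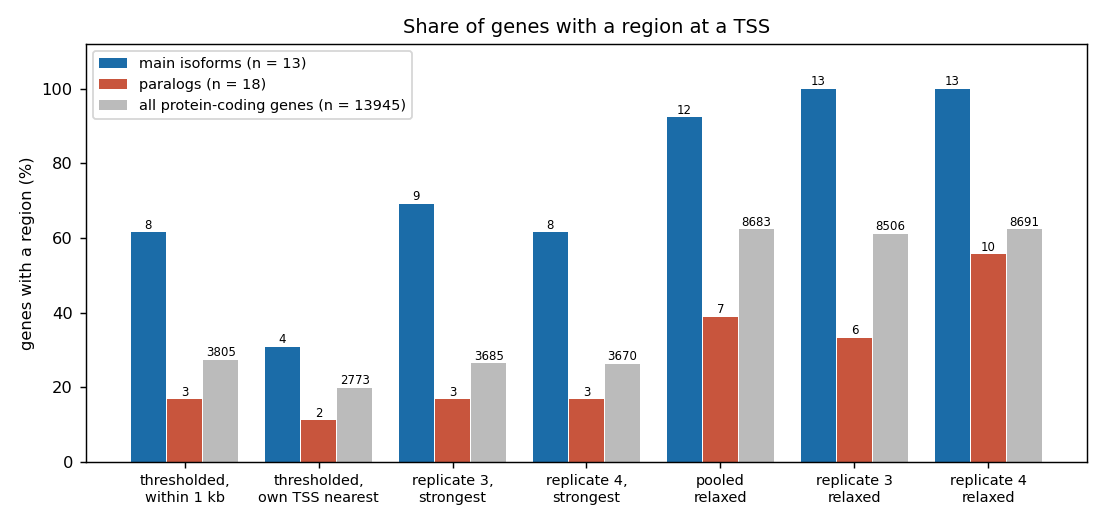
Bars give the percentage of main isoforms, paralogs and all protein-coding genes with a region whose summit lies within 1 kb of a TSS, under 7 ways of counting, and the number over each bar is the number of genes. Main isoforms stand above all genes and paralogs below them throughout, with the smallest gap between main isoforms and all genes, 30.8% against 19.9%, where only the gene with the nearest TSS is counted.

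Many of these regions were shared with a neighbouring gene. The 11 genes had 16 regions, of which 11 lay within 1 kb of a TSS of another annotated gene. For 9 of the 16 the Vha gene's own TSS was the nearest. Counting a region only for the gene with the nearest TSS left 4 main isoforms (Vha55, Vha100-2, Vha16-1 and Vha13, 30.8%) and 2 paralogs (Vha68-1 and VhaM9.7-c, 11.1%), beside 19.9% of all genes. Under that rule the 33 genes had 6 with a region (18.2%).

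Members whose promoter faces another gene carried most of the peaks. A divergent protein-coding neighbour, with a TSS on the other strand at most 1 kb upstream, was found at 14 of the 33 genes, and 9 of these 14 had a peak (64.3%). At 1 of the 9, Vha14-1, the counted region lay 760 bp downstream and not at the facing promoter, that of CG30091. Of the 19 genes without one, 2 had a peak, Vha16-1 and VhaM9.7-c (10.5%). Over all protein-coding genes the same shares were 44.1% of 5052 genes with a divergent neighbour and 17.7% of 8893 genes without. Main isoforms had such a neighbour more often (8 of 13, 61.5%) than paralogs (5 of 18, 27.8%) or all genes (36.2%). Among genes with a divergent neighbour, 7 of 8 main isoforms and 2 of 5 paralogs had a peak. Without one, 1 of 5 main isoforms and 1 of 13 paralogs did. The part of promoter layout in the difference between main isoforms and paralogs was not tested.

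**Figure D2:**
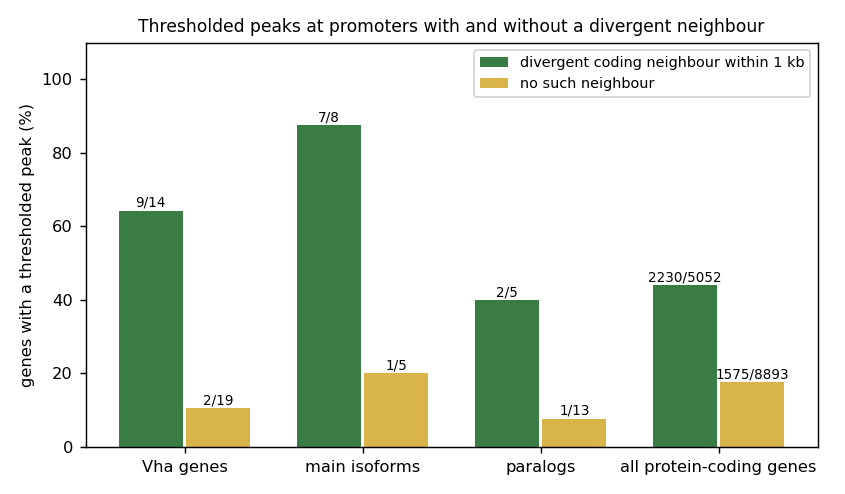
Bars give the percentage of genes with a thresholded peak within 1 kb of a TSS, for genes with and without a divergent protein-coding neighbour within 1 kb, with the numbers of genes over the bars. The bars with a neighbour are the higher ones in each of the 4 sets, from 2 of 5 paralogs to 7 of 8 main isoforms.

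In the V1 sector the strongest region lay at Vha36-1 (FBgn0022097, 2R, 15541435 to 15542498), which encodes subunit D of the central rotor stalk. The region spanned 15541314 to 15541452 with its summit 44 bp upstream of the start and a signal of 342 at rank 73. Its signal was 178 in replicate 3 (rank 61) and 166 in replicate 4 (rank 127). The summit was 28 bp from the TSS of CG8187 on the other strand, nearer than to that of Vha36-1. Both paralogs of subunit D, Vha36-2 on 2R and Vha36-3 on X, had no region within 1 kb in any list.

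Vha55 (FBgn0005671, 3R, 12623762 to 12627829) encodes the single B subunit, which forms the catalytic sites together with A. Its region, 12627696 to 12627951, had the summit 5 bp downstream of the most upstream TSS, inside the 5' UTR, with a signal of 254 and rank 176. The signal was 101 in replicate 3 (rank 253) and 160 in replicate 4 (rank 144). Snx3, a sorting nexin gene on the other strand, starts 202 bp upstream, and the stretch between them is the one printed above with the DRE, whose first base lies 189 bases before the TSS, outside the region itself.

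For the A subunit, the other part of the catalytic sites, the paralog and not the main isoform had a thresholded peak. The main gene Vha68-2 (2L, 12974322 to 12978607), with 5 TSSs, had none. At Vha68-1 (2L, 13000770 to 13004107) the summit lay 87 bp upstream of the start, and the signal was 88.1 at rank 2690, with 45.1 in replicate 3 and 43.0 in replicate 4. At Vha68-2 the strongest relaxed region had a signal of 46.0 in the pooled list (rank 7691), 83 bp upstream of an inner TSS, and of 34.4 in replicate 4, 78 bp upstream. In replicate 3 the strongest region lay elsewhere, 51 bp downstream of an outer TSS, at 40.2. The region at Vha68-1 was thus above the strongest one at Vha68-2 in both replicates. The region at Vha68-1 is also within 286 bp of the TSS of mTor, the growth kinase that works at the lysosome surface beside the pump. Vha68-3, which starts 178 bp past the end of Vha68-2, had no region in any list.

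Vha44 (2R, 16324813 to 16336637) encodes subunit C, the peripheral subunit that is released when the pump disassembles. Its region, 16336588 to 16336843, had a signal of 148 and rank 822, with 77.0 in replicate 3 and 72.9 in replicate 4. The summit was 79 bp upstream of the Vha44 TSS and 44 bp from a TSS of Hmgs, the HMG-CoA synthase gene of the mevalonate pathway, in whose 5' UTR it lay. The longer E-box TCACGTGA begins 48 bases before the Vha44 TSS and lies inside this region.

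Vha13 (3R, 19643018 to 19644386), the gene of the stalk subunit G, had 2 regions in the 640 bp between its TSS and that of Nup58, a nucleoporin gene. The stronger, 55 bp upstream of Vha13, had a signal of 142 and rank 921, with 56.1 in replicate 3 and 86.7 in replicate 4. The other had its summit 18 bp from the TSS of Nup58, with a signal of 86.4 and rank 2803, 37.3 in replicate 3 and 43.6 in replicate 4, and it is the one that contains the Nup58 DRE. A further region lay in the 3' UTR of Vha13 (signal 93.8, rank 2399), 410 bp from a TSS of subdued. It was the only thresholded summit in the body of a Vha gene that was over 1 kb from the gene's TSSs.

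Vha14-1 (2R, 15679426 to 15680084), the gene of subunit F, is 659 bp long, and the region counted for it lies past its end. It had a summit 760 bp downstream of the TSS and 102 bp past the 3' end of the gene, 368 bp from the TSS of the next gene, Gmppa. The signal was 99.6 (rank 2131), 36.8 in replicate 3 and 57.9 in replicate 4. Its paralog Vha14-2 had 1 relaxed region, near the bottom of the list of replicate 3 (signal 9.65, rank 29780), and none in replicate 4.

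The remaining V1 genes, both without paralogs, had no thresholded peak. Vha26, for the stalk subunit E, had a region below the threshold, 79 bp upstream of its TSS, with a signal of 55.6 in the pooled list (rank 5889), against 63.3 for the weakest thresholded peak. The strongest region was 89 bp upstream in replicate 4 (20.2, rank 11603) and 217 bp upstream in replicate 3 (24.8, rank 5702). VhaSFD, for the regulatory subunit H, had its strongest region 391 bp upstream of its TSS in the pooled list (28.8, rank 14856) and 383 bp upstream in replicate 4 (14.7). In replicate 3 the strongest region was another one, 673 bp downstream (17.7). A DRE begins 23 bases before its TSS, closer than the DRE of Vha55, as printed above.

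In the V0 sector, Vha16-1 and Vha100-2 had 3 regions each, a number reached by 1.28% of all genes. Vha16-1 (2R, 6625242 to 6633090) encodes the c subunit of the proton-carrying ring. Its strongest region lay 52 bp before the upstream start, and its signal was 181 at rank 472, with 82.1 in replicate 3 and 100 in replicate 4. Another lay 26 bp upstream of the inner TSS (signal 106, 44.7 in replicate 3 and 73.7 in replicate 4). The last lay 796 bp downstream of that TSS in an intron, also at a signal of 106 but at 12.5 in replicate 3 (rank 19011) and 121 in replicate 4 (rank 339). That intronic region rests on replicate 4, and the other 15 regions of the 11 genes were among the 4797 strongest in both replicates. No other gene has a TSS within 1 kb of the 3 regions.

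Vha100-2 (3R, 18390323 to 18399169) encodes the main isoform of subunit a, which lines the path of the protons. Its 3 regions had signals of 154, 143 and 129 at ranks 750, 896 and 1173. The first, 58 bp upstream of the upstream TSS, had 52.4 in replicate 3 and 105 in replicate 4. The next, 474 bp upstream of the inner TSS, had 65.1 and 97.5, and the last, 485 bp downstream of the upstream TSS, had 59.1 and 74.8. All 3 lay within Vti1b, a SNARE gene on the other strand that overlaps the start of Vha100-2, and 2 were within 1 kb of a Vti1b TSS. Vha100-4, the paralog that starts 517 bp past the end of Vha100-2, had no region in any list, nor had Vha100-3. The neuronal Vha100-1 had relaxed regions in replicate 4 (the strongest at 17.6, rank 13628) and none in replicate 3. At Vha100-5 the strongest region lay 737 bp downstream of the TSS in replicate 3 (17.5) and 281 bp upstream in replicate 4 (10.2). Weaker regions there were not compared between replicates.

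**Figure D3:**
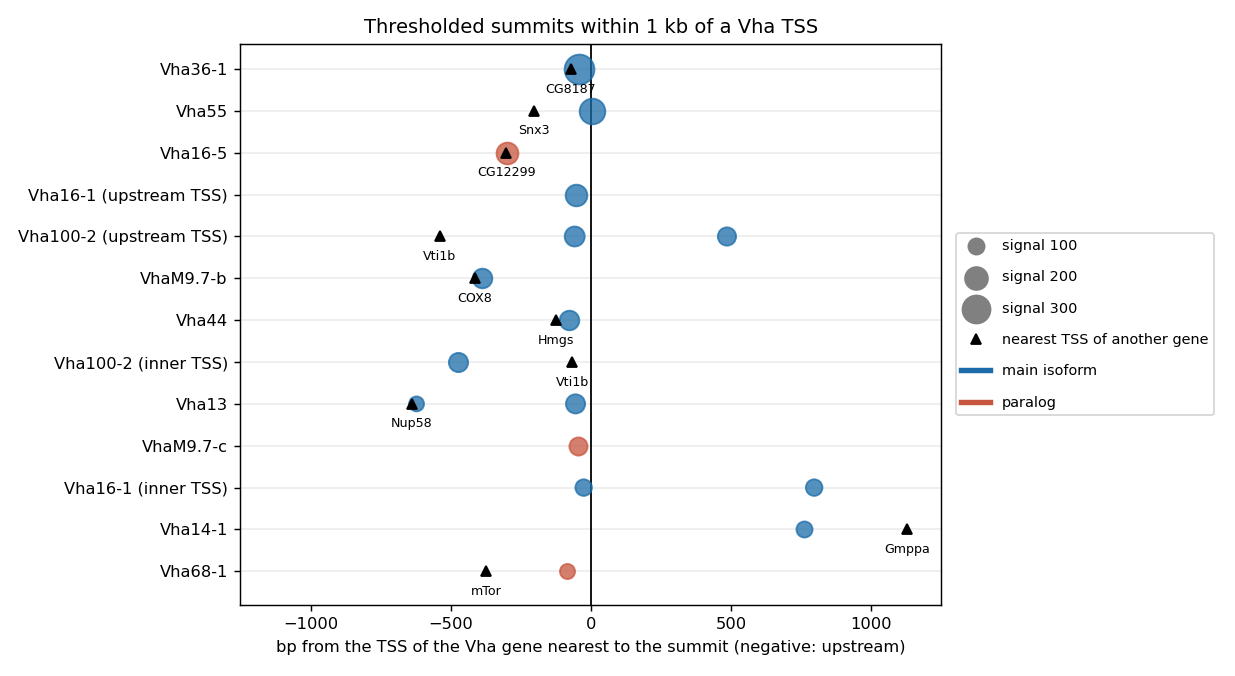
Circles show the 16 thresholded summits within 1 kb of a TSS of a Vha gene by their distance from that TSS in bp, with circle area in proportion to signal, and triangles show the nearest TSS of another gene within 1 kb of the summit. Of the 16 summits, 12 are upstream and 4 downstream, and 9 are within 100 bp of the TSS. The summits at Vha16-5, VhaM9.7-b and the distal one at Vha13 sit at the neighbour's start. Those at Vha36-1 and Vha44, 44 and 79 bp from the Vha TSS, are nearer to the neighbour's, at 28 and 44 bp.

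The c subunit has 4 paralogs, and 1 of them, Vha16-5, had a thresholded peak. Its region (2L, 10737281 to 10737385) had a signal of 184 and rank 446, with 96.6 in replicate 3 and 101 in replicate 4. The region before the upstream start of Vha16-1 was at 82.1 in replicate 3 and at 100 in replicate 4, below Vha16-5 in both, though by little in replicate 4. The intronic region of Vha16-1 that rests on replicate 4 was above Vha16-5 there, at 121. The summit was 300 bp upstream of Vha16-5 (10736319 to 10737043) and 2 bp from the TSS of CG12299 on the other strand. Vha16-3 had no region in any list. Vha16-2, 985 bp from it, and Vha16-4 had none in replicate 3 and signals of 9.18 and 13.6 in replicate 4.

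The small e subunit has 4 genes, and 2 had peaks. VhaM9.7-b (3L, 21539862 to 21541215) had a region with a signal of 149 and rank 807, 61.6 in replicate 3 and 76.8 in replicate 4. Its summit was 387 bp upstream of VhaM9.7-b and 28 bp from the TSS of COX8, a cytochrome c oxidase subunit gene. VhaM9.7-c (3L, 4186018 to 4186865) had a region with a signal of 127 and rank 1219, 75.2 in replicate 3 and 60.4 in replicate 4, so that these 2 genes changed order between replicates. The summit lay 48 bp upstream of VhaM9.7-c, no other gene starts within 1 kb, and the site is within introns of CG18675 and Teh2. VhaM9.7-a had a relaxed region at 41.8 in the pooled list, 20.1 in replicate 3 and 26.4 in replicate 4, and VhaM9.7-d had none in any list.

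Subunits d and c'' had no thresholded peak in either form. VhaAC39-1 (subunit d, X) had 17.4 in replicate 3 and 21.9 in replicate 4, 84 bp downstream of its TSS in the pooled list (37.8). Its paralog VhaAC39-2 had 18.7 in replicate 4, none in replicate 3 and 42.9 in the pooled list. VhaPPA1-1, for the c'' subunit of the ring, had 12.0 in replicate 3 and 16.8 in replicate 4 and no region in the pooled list, and VhaPPA1-2 had 12.9 in replicate 4 alone. Of the accessory genes, VhaAC45 had a region 7 bp from its TSS at 36.1 in the pooled list, 13.4 in replicate 3 and 30.4 in replicate 4, and VhaAC45RP had none in any list.

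The strongest region of each gene in each list, which need not be the same region, was set beside that of its paralogs for the 8 subunits that have any. The main isoform held the stronger region for D, F and a in the pooled list and in each replicate. For D and F that region in the pooled list was nearer to the TSS of another gene. It lay 28 bp from CG8187 and 44 bp from Vha36-1 for D, and 368 bp from Gmppa and 760 bp from Vha14-1 for F. For A the paralog held it in each of the 3 lists. For c, e and d the order depended on the list, and for c'' the main isoform was higher in each replicate while the pooled list had neither. In all, the main isoform was higher for 4 of the 8 subunits in the pooled list, with 3 for the paralog and 1 with neither. It was higher for 5 in replicate 3 and for 7 in replicate 4, where c counts for the main isoform through the intronic region of Vha16-1.

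**Figure D4:**
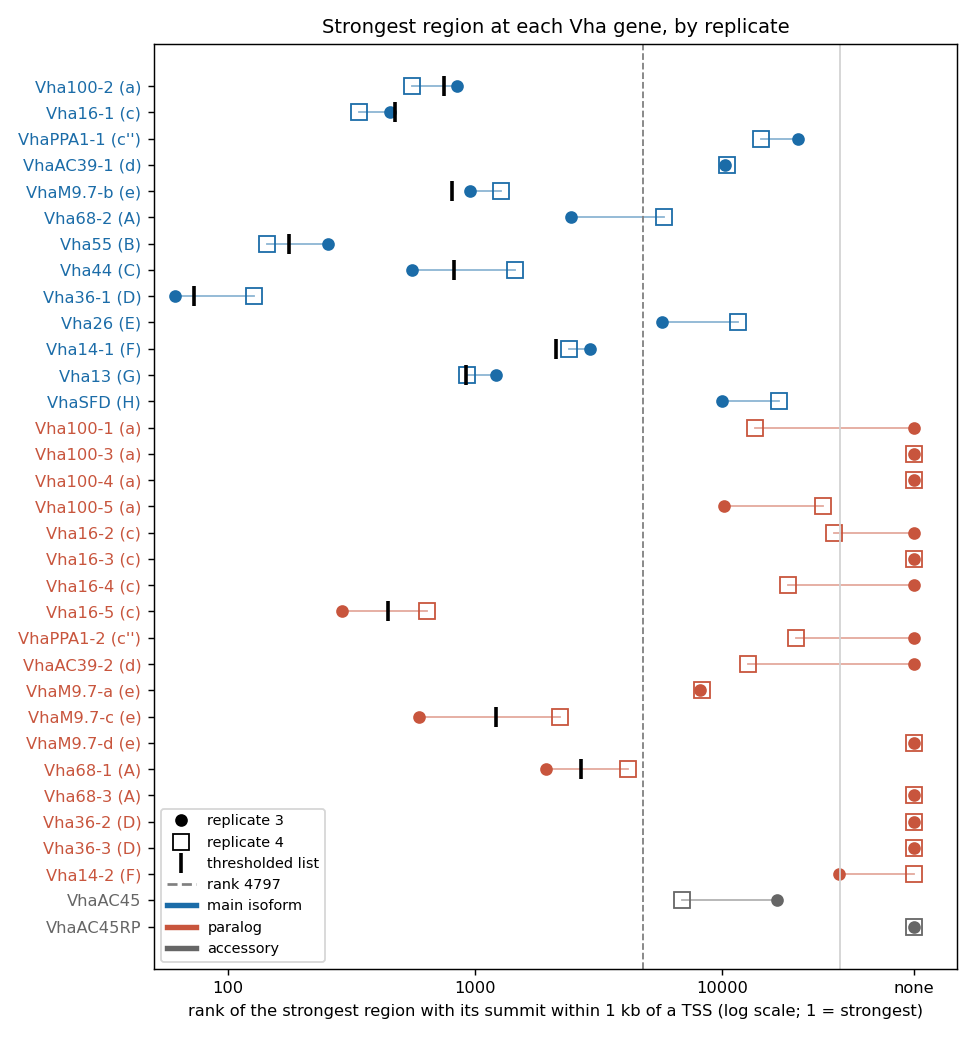
Each row is a Vha gene with its subunit in brackets, placed by the rank of its strongest region within 1 kb of a TSS on a log scale, with filled circles for replicate 3, open squares for replicate 4 and a black bar for the thresholded list (the region may differ between lists). The dashed line marks rank 4797. Both replicates put Vha36-1, at ranks 61 and 127, and Vha55, at 253 and 144, far to the left, and most paralogs lie to the right of the line or at none.

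The medians that follow describe only the genes that have a region and were not tested. The strongest thresholded region per gene had a median signal of 149 over the 11 Vha genes (88.1 to 342), 151 over the 8 main isoforms and 127 over the 3 paralogs, beside 102 over the 3805 protein-coding genes with a peak. The median distance of that region from the TSS was 58 bp, beside 87 bp over all these genes. In replicate 3 the strongest region at the 13 main isoforms had a median of 56.1, beside 24.2 over all genes with a region, and in replicate 4 of 72.9, beside 33.2. At paralogs with a region these medians were 32.6 for 6 genes in replicate 3 and 18.2 for 10 genes in replicate 4. The main isoforms are also longer genes (median 3594 bp, against 1335 bp for paralogs and 2166 bp for all) and more often have several TSSs (5 of 13, against 3 of 18 and 26.5% of all genes). The part of gene length and number of TSSs in the counts was not tested.

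The motif letters of the promoters were searched on both strands from 250 bp before to 50 bp after each TSS. The E-box core CACGTG was found at 5 Vha genes (15.2%), beside 5.3% of all genes. These were the main isoforms Vha55, Vha44 and Vha68-2, the paralog VhaM9.7-d and VhaAC45RP. At VhaM9.7-d the match begins 23 bases downstream of the TSS, past the 5' UTR. The longer form TCACGTGA, which contains CACGTG, was found at Vha44 and Vha68-2, 2 of 33 genes, beside 28 of 13945 genes (0.201%). Of these 5 genes only Vha44 and Vha55 had a thresholded peak, and both E-boxes lay inside the peak region. Among the 16 regions 3 held CACGTG (18.8%, at Vha44, Vha55 and the intronic region of Vha100-2), beside 3.5% of all thresholded regions.

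Housekeeping and repeat elements were found at a few members each. The DRE TATCGATA was found at 2 Vha promoters, Vha55 and VhaSFD (6.06%), beside 10.2% of all genes, and Motif 1, GTCACACT, at 4 (Vha16-1, Vha26, Vha68-2 and Vha100-1, 12.1% beside 7.59%). The GAGA element GAGAGAG was found at 4 promoters, those of Vha100-2, Vha16-1, Vha68-2 and Vha100-5 (12.1% beside 9.08%). Of the 16 regions 4 held it (25.0%), all at Vha100-2 or Vha16-1, beside 13.8% of all thresholded regions. The NR2E-type hexamer AAGTCA was found at 8 promoters (24.2% beside 19.8%) and in 3 of the 16 regions (18.8% beside 10.5%), at Vha13, Vha100-2 and VhaM9.7-b. At Vha100-2 the counted match is in the region 485 bp downstream of the upstream TSS and is not the printed one. AGGTCA, the hexamer of many nuclear receptors, was found at 3 promoters (9.09% beside 7.53%). The E-box CAGCTG was found at 11 promoters (33.3% beside 22.3%), and TATAAA, the TATA box letters, at 18 (54.5% beside 51.2%), 7 of 13 main isoforms and 11 of 18 paralogs. In the regions the shares of members were below those of all thresholded regions for CAGCTG (12.5% beside 17.5%), TATAAA (18.8% beside 22.6%) and the DRE (6.25% beside 6.92%). They were above for GTCACACT (6.25% beside 4.11%), AGGTCA (6.25% beside 3.73%) and TCACGTGA (6.25% beside 0.229%), each in 1 region. These matches are letters in the reference and were not tested.

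Genes that work with the pump at the lysosome had peaks at 9 of 17 (52.9%), beside the same 27.3% of all genes. The list was chosen with earlier results of these data known, and the difference was not tested. No count by nearest TSS or by divergent neighbour is given for it. The strongest was at Lamtor3, a subunit of the Ragulator complex that anchors TORC1 (signal 284, 113 in replicate 3 and 168 in replicate 4). CtsL1, a lysosomal cathepsin (134), spin, a lysosomal efflux carrier (105), and ATP6AP2, an accessory protein of the pump under another symbol (101), followed. The strongest region at ATP6AP2 ranked 1314 in replicate 4 and 9219 in replicate 3. Npc2a (96.8) and Npc1a (81.8), which carry sterols out of lysosomes, RagA-B (75.0, a GTPase of the TORC1 pathway) and the assembly factor Rbcn-3B (63.5) were nearer the threshold, and in the single replicates Rbcn-3B ranked 4899 and 7133, outside the 4797 strongest of each. The gene mTor is counted through the region it shares with Vha68-1, whose summit is nearer to Vha68-1 (87 bp) than to mTor (286 bp). Mitf, RagC-D, Lamtor1, Rbcn-3A, Lamp1, cathD, CtsB and the channel gene Trpml had no thresholded peak, although CtsB ranked 3641 in replicate 3 and 3298 in replicate 4, among the 4797 strongest of both.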

How the data were processed

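Chromatin immunoprecipitation was sequenced in 1 group of Hr83-GFP larvae, with replicates 3 and 4. The authors deposited region lists on dm6, and per the notes deposited with the samples they were called against a control alignment. There is 1 relaxed list per replicate and 1 for both pooled, with 30000 regions each, and 1 list of 4797 thresholded by IDR from these 3. Which aligner and which caller were used is not given in the sources used here. In the deposited lists the signal is the authors' value per region, not normalized between lists, and was used only to rank or describe regions of 1 list. The −log10 q-value given by the authors was 3.86, its ceiling, at all 16 member regions and was not used to rank. The lists on dm3 were not used. The labels number the replicates as biological and give each its own biosample. With 1 group there was nothing to test, and no p-values are given.

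Regions were placed with the Ensembl release 115 annotation and the RefSeq genome of the same assembly, on 2L, 2R, 3L, 3R, 4 and X. All regions ended within their chromosome, and in 98.7% to 100.0% of coding transcripts on the plus strand the coding sequence began with ATG. Coordinates are 1-based, and a summit is the region start plus the offset that the authors deposited. The depth is unknown, since the lists hold no counts. Replicate values of a thresholded region are those of the strongest overlapping region, by at least 1 bp. Every gene with a symbol starting Vha is named, and main isoforms, paralogs and accessory genes follow general knowledge of the pump. The accessory gene VhaM8.9 carries the symbol ATP6AP2 in the annotation and is counted in the lysosomal list. The members, classes, motifs and the list of 17 lysosomal genes were chosen with earlier results of these data known. Assignment and motif search were tested on simulated data. Python 3.11.15, numpy 2.4.6, pandas 2.3.3 and matplotlib 3.10.9 were used. Alternatives were other windows, list sizes, single replicates, the nearest TSS, other start sites and other promoter windows.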

Additional observations from a re-analysis of the deposited data

How the results depend on the processing

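The counts of genes with a peak were 11 Vha genes, 8 main isoforms, 3 paralogs and 3805 of all protein-coding genes. From a single replicate they were 11 to 12, 8 to 9, 3 to 3 and 3670 to 3685. Counting only the gene with the nearest TSS gave 6 Vha genes and 4 main isoforms, since a neighbour's TSS was then nearer. With a window of 5000 bp, 17 Vha genes, 7 paralogs and 6310 of all genes were counted. The Vha share was then 51.5%, beside 45.2% of all genes, and it was already near that of all genes at 1 kb (33.3% beside 27.3%). Paralogs came to 5 (27.8%) with a window of 2000 bp, beside 31.6% of all genes. With double the number of pooled regions they also came to 5, beside 40.3% of all genes. The stronger 50% of the list left 2215 of all genes (15.9%), 8 main isoforms (61.5%) and 2 paralogs (11.1%). Regions shared by both replicates' strongest, an alternative chosen after seeing the data, kept the count at 8 main isoforms (61.5%) and 3 paralogs (16.7%). All genes then came to 2658 (19.1%). With Vha68-1 and Vha100-1 moved to the main isoforms, 9 main isoforms and 2 paralogs had a peak. The main isoforms' share was above and the paralogs' share below that of all genes under each alternative run. From the most upstream TSS only, the E-box was at 3 Vha promoters (9.09%, beside 4.2% of all), since inner start sites of Vha55 and Vha68-2 then fell away. From 500 bp upstream to 100 bp downstream the E-box was at 7 Vha promoters (21.2%) and at 1296 of all promoters (9.29%). Within 100 bp of the TSS the DRE was at 1 Vha promoter (3.03%, beside 8.49% of all). The lists give no read counts, so what depth hides among the weaker regions cannot be stated, and no control genotype was analysed here. No paired analysis was possible because there is 1 group and no test.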
